A study of Rattus norvegicus with 8 samples.

Results

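The genes described here make up the machinery that copies DNA before a cell divides. They are 41 genes of the replicative helicase, the origin licensing factors, the polymerases, the sliding clamp and its loader, the enzymes that join the lagging strand, the enzymes that make deoxynucleotides, a chromatin assembly factor and the transcription factor E2f1. They were taken by name from a count table of 37209 rat genes. All 41 had a row and all 41 passed the filter on low counts, which left 15464 genes. A gene can pass that filter through the libraries of 1 group alone. Gins1, with 2, 0, 8 and 0 counts in controls 1 to 4, passed through the grafts. So did Cdc6 (11, 11, 2 and 3 counts in these controls) and Orc1 (12, 3, 10 and 3). Gins2 (14, 8, 9 and 9) and Chaf1b (28, 18, 21 and 4) passed in the same way. All of these are among the genes counted below as higher, at least 2-fold higher and without overlap. The RNA came from Sprague Dawley rats 1 week after an operation in which a vein segment was joined, over cuffs, into the cut left common carotid artery. The 4 vein grafts were compared with 4 control jugular veins, taken from the other side of the neck of operated rats. The labels call the control veins self-contralateral, so grafts and controls may come from the same rats. The rats that gave the controls had thus been through the same operation and the same 1 week. Which control and which graft came from 1 rat is not told by the labels, nor is the vein used as graft. The rats' age and sex are not in the labels, the series gives no sham-operated vein, and each library holds RNA of a whole vein.

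Before S phase, the origin recognition complex, Cdc6 and Cdt1 load the Mcm2 to Mcm7 ring onto DNA. Mcm10, Cdc45 and the GINS complex then turn that ring into a moving helicase, behind which primase, the polymerases, the clamp Pcna and the ligase build the new strands. Many of these genes are transcribed when E2F factors are released from the retinoblastoma protein at the end of G1. In an injured vessel, smooth muscle cells, fibroblasts, endothelial cells and infiltrating leukocytes can all enter the cell cycle.

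Total counts ran from 5981520 to 16061189 per library, with control 4 the shallowest. The libraries carried the transcripts of a vessel: markers of smooth muscle summed to 12098 to 19906 CPM (counts scaled to the library's size and TMM factor) in the controls and 1776 to 3426 CPM in the grafts. The extraction text in the labels names prefrontal cortex. Yet 7 neuronal markers summed to only 6.69 to 8.46 CPM in the controls and 14.3 to 48.3 CPM in the grafts. Most of the graft sums was Stmn2, at 8.01, 21.8, 45.2 and 18.6 CPM in grafts 1 to 4, while Syt1 and Camk2a did not pass. All 10 macrophage markers rose, with sums of 233 to 337 CPM in the controls and 1224 to 1890 CPM in the grafts, and all 7 tested T and NK cell markers rose, with sums over 9 markers of 4.67 to 15.6 CPM and 42.9 to 104 CPM. Of 7 adipocyte markers, all 7 fell, and their control sums were highest in controls 3 and 4, at 2041 and 2293 CPM. In bulk RNA, more dividing cells, more cells of another type and more RNA per cell cannot be told apart, and the part of the leukocyte markers in the results below was not tested.

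Replication genes were mostly higher in the grafts, but by very different amounts. Of the 41 genes, 29 rose, 2 fell and 10 did not pass the test, which was edgeR's quasi-likelihood F test with p adjusted over all genes (Benjamini-Hochberg) and a threshold of 0.05. Over all 15464 genes, 21.0% were called higher and 21.3% lower. The median log2 fold change was 1.00 over the 41 genes and 0.01 over all genes tested. The rise was at least 2-fold for 21 of the 41, against 13.1% of all genes, and the lowest graft stood above the highest control for 29, against 20.8% of all genes. The fold changes ran from 2.63 on the log2 scale for Tk1 to -0.56 for Pold2. E2f1 and Pcna were among the genes that did not pass.

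With library totals alone in place of TMM scaling, edgeR called 31 of the genes higher and 0 lower. At an unadjusted p under 0.05 by edgeR these counts were 33 and 0. That scaling moved the median over all genes from 0.01 to 0.23 and the share of all called genes that were higher from 49.7% to 67.8%, so the changes given here are relative to the TMM scale. With controls 3 and 4 left out, edgeR called 24 of the 41 higher and 0 lower (1 lower at an unadjusted p under 0.05), and the median was 0.94, while 15.4% of 16445 genes tested were called higher.

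**Figure D1:**
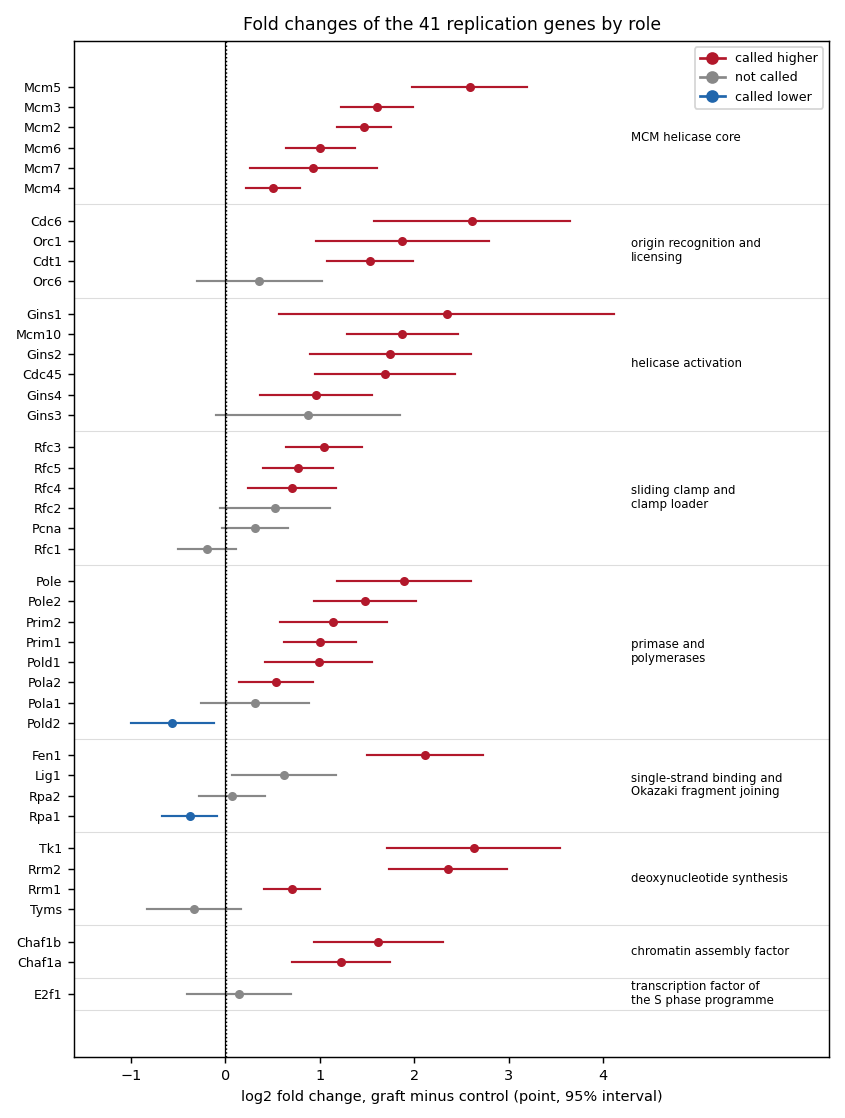
Log2 fold change (graft minus control) of each of the 41 genes, with its 95% interval, grouped by role; red genes were called higher, blue genes lower and grey genes neither, and the dotted line is the median of all genes tested (0.01). All 6 MCM genes lie to the right of 0, whereas Pcna, Rfc1, Pola1, Rpa2, Tyms and E2f1 are among those with intervals that include 0.

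Relative to their means, these genes varied less between the grafts than between the controls. The median coefficient of variation of the 41 genes was 24.2% over the controls and 13.6% over the grafts. It was smaller in the grafts for 33 genes, a count that was not made over all genes. Over all genes tested the medians were 23.4% and 16.9%. The controls held the shallowest library and had lower values for these genes (median CPM of 5.54 against 10.9 in the grafts). The part of counting noise in their larger variation was not tested. Within the grafts, graft 2 was highest for 25 of the 41 genes and graft 3 lowest for 17. Within the controls, control 2 was lowest for 21. For the median gene, differences between libraries of a group were small beside the group difference. It stood 1.00 to 1.13 above the control mean in the grafts and -0.27 to 0.10 from it in the controls, on the log2 CPM scale. Single genes departed further from their control mean, such as Gins1 by 1.53 and Cdc6 by -1.16 in control 3 and Tk1 by 1.16 in control 1.

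**Figure D2:**
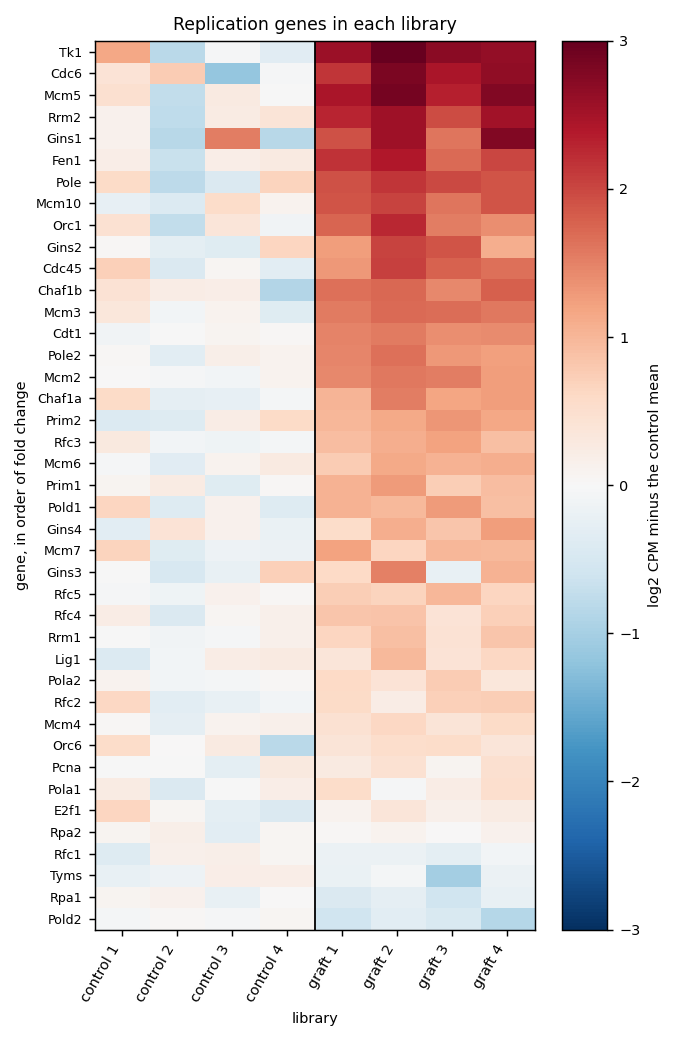
Log2 CPM of each gene in each library minus the mean of the 4 control libraries, from blue (lower) to red (higher), with genes in order of fold change. The 4 graft columns are red from Tk1 down to Mcm7 and mostly pale at the bottom, where Rpa2, Rfc1, Tyms, Rpa1 and Pold2 lie.

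The promoters of some of these genes carry sequence words known to bind E2F factors. RefSeq promoters of the GRCr8 assembly, from 250 bases before to 50 after the annotated start, were matched for 35 of the 41 genes, and Mcm4, Orc1, Cdc6, Gins4, Rrm2 and E2f1 had no entry in the table. The words searched on both strands were TTTCGCGC, TTTGGCGC, TTTCCCGC and TTTGCCGC. At least 1 of them stood in 15 of the 35 promoters (42.9%), against 2.14% of all 33465 promoters of that length and 3.56% of the 11588 that belong to genes tested here. The words are rich in G and C, and so are these promoters, with a median GC content of 60% against 51.7% over all promoters. In 13 of the 15 genes a word began or ended within 60 bases of the start. The CCAAT box (CCAAT, both strands) stood in 22 of 35 promoters (62.9%, against 37.5% of all promoters), and the cell cycle homology words TTTGAA or TTCGAA in 6 of 35 (17.1%, against 19.7%).

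A word on either strand was about as frequent in both kinds of gene: 10 of 24 matched genes called higher had one (41.7%) and so did 5 of the 11 others (45.5%). The median log2 fold change was 1.04 with a word and 0.88 without. Read on the strand of the gene only, the shares were 8 of 24 (33.3%) and 1 of 11 (9.09%), with medians of 1.47 and 0.83. These are descriptions without a test. The promoters below are shown so that the words can be seen in place in 6 roles, with the E2F words in capitals. The first 5 belong to genes that rose and Tyms, the last, to a gene that did not pass. In Mcm2 and Gins1 the words on the 2 strands overlap into 1 palindromic stretch, and in Rfc3 and Cdt1 they stand apart.
Mcm2, chr4:122918045-122918344, minus strand: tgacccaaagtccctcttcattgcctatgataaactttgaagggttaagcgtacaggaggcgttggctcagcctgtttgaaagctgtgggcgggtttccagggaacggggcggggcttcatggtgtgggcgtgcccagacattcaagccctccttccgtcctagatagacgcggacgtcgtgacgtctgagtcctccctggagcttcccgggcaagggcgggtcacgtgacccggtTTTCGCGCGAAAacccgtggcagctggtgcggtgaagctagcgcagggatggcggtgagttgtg
Cdt1, chr19:67528999-67529298, plus strand: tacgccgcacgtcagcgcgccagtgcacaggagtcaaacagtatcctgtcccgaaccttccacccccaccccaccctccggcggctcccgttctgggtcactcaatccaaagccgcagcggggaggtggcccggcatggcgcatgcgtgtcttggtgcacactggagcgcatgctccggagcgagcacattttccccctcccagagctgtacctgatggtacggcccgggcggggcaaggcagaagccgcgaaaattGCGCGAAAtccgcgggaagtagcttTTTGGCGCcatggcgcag
Gins1, chr3:160184670-160184969, plus strand: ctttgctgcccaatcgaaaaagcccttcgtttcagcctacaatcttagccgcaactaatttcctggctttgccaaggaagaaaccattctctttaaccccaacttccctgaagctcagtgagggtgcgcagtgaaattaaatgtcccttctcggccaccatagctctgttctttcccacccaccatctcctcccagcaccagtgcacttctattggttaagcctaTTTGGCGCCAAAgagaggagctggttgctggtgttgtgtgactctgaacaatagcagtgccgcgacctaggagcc
Rfc3, chr12:5836318-5836617, plus strand: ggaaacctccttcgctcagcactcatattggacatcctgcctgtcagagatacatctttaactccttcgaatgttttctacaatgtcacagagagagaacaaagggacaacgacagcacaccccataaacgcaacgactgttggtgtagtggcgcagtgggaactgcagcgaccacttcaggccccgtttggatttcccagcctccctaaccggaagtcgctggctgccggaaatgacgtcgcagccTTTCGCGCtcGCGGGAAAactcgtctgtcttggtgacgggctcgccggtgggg
Pole2, chr6:93435312-93435611, minus strand: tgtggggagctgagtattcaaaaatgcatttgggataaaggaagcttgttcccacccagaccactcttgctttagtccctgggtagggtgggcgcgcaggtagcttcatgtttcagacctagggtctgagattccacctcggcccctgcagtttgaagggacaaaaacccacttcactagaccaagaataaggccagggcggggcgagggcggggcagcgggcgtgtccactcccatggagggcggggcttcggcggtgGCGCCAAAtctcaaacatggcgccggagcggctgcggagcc
Tyms, chr9:120776034-120776333, minus strand: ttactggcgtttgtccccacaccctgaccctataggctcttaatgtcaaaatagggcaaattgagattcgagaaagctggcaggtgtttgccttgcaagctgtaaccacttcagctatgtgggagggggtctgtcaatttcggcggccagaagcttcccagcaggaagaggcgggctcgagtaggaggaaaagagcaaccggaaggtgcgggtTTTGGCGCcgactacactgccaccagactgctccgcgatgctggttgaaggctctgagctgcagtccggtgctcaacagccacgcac

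Of the genes of the Mcm2 to Mcm7 ring, the 5 with a promoter entry all had E2F words, while Mcm10 had none. The other 4 besides Mcm2 are shown by the 30 bases around the word nearest to the start, again with the words in capitals. Mcm6 holds an overlapping pair whose nearest base lies 128 bases before the start, and in Mcm7 the last base of the word is the first base of a CCAAT box.
Mcm3, chr9:30733734-30733763, minus strand: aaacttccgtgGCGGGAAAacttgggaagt
Mcm5, chr19:13488794-13488823, plus strand: ccaggttggttTTTCCCGCgaaagtcggct
Mcm6, chr13:42404469-42404498, minus strand: gtctgctTTTGGCGCGAAAttagcgtgtgg
Mcm7, chr12:22163212-22163241, minus strand: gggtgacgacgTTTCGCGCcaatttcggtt

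**Figure D3:**
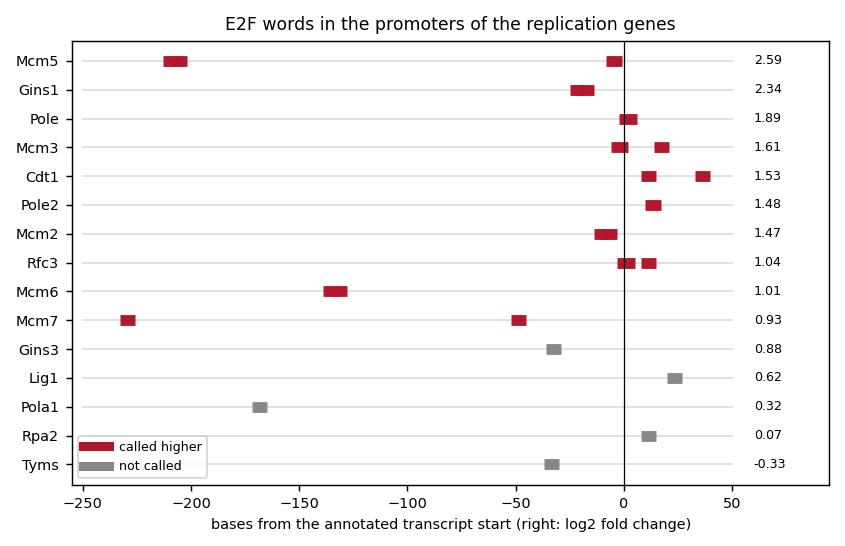
Position of each E2F word (bar) from 250 bases before to 50 after the annotated start in the 15 promoters that hold one, in order of log2 fold change (at right); red genes were called higher and grey genes were not called. Most words lie near the start, in genes of both colours.

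All 6 genes of the helicase ring rose. Mcm2 stood at 36.7, 40.2, 39.0 and 32 CPM in grafts 1 to 4 and at 13.6, 12.9, 12.6 and 14.4 CPM in controls 1 to 4. Mcm3 stood at 27.4, 30.3, 29.6 and 27.7 CPM in the grafts and at 11.7, 8.66, 9.87 and 7.09 CPM in the controls. In both, every graft was above every control and the 4 grafts lay close together. Mcm5 had the largest fold in the ring, from 5.09, 2.09, 4.35 and 3.55 CPM in the controls to 20.3, 27.1, 18.7 and 25.6 CPM in the grafts. Its log2 fold change was 2.59 ± 0.27 (SE; edgeR adjusted p = 0.000108), or 6.01-fold. At the other end, Mcm4 went from 34.2 ± 4.17 CPM (SD, n = 4) to 48.5 ± 3.83 CPM, a rise of 0.51 ± 0.13 (edgeR adjusted p = 0.0106), with no overlap between the groups. Mcm6 rose by 1.01 ± 0.16 and Mcm7 by 0.93 ± 0.30. Mcm7 was the one ring gene whose groups overlapped, because control 1 stood at 3.82 CPM, above graft 2 at 3.76 CPM. Its call was kept without control 1 (edgeR adjusted p = 0.00457) or graft 2 (0.0406) and lost without any 1 of the other 6 libraries (adjusted p from 0.0585 to 0.0821) and with controls 3 and 4 left out (0.176).

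Of the 4 origin licensing genes, 3 rose. Cdt1, which brings the ring to origins, was the most even of them: it stood at 2.02, 2.19, 2.34 and 2.24 CPM in the controls and at 6.49, 6.84, 6.08 and 6.10 CPM in the grafts. Its rise on the log2 scale was 1.53 ± 0.20 (SE; edgeR adjusted p = 0.000357). Cdc6, the ATPase that loads the ring, went from 0.824, 1.10, 0.167 and 0.560 CPM to 3.09, 5.03, 3.84 and 4.49 CPM. That is 6.11-fold, with only 2 counts in control 3 and 3 in control 4 behind the low values. Orc1, the largest origin recognition subunit, rose by 1.88 ± 0.41 (edgeR adjusted p = 0.00531). Orc6, the smallest, did not pass: controls 1 to 4 stood at 4.57, 3.09, 3.76 and 1.68 CPM and the grafts at 4.07, 4.51, 4.56 and 4.04 CPM, all inside the range of the controls, with a log2 fold change of 0.36 (95% interval -0.30 to 1.02).

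Of 6 genes that activate the loaded ring, 5 rose. Mcm10, which helps to open the ring's DNA, went from 2.02, 1.79, 3.60 and 2.61 CPM in the controls to 9.47, 10.3, 7.76 and 9.37 CPM in the grafts, which is 1.88 ± 0.26 (SE, log2; edgeR adjusted p = 0.000469). Cdc45, a fixed part of the moving helicase, went from 2.85, 1.20, 1.76 and 1.31 CPM to 4.37, 7.51, 6.16 and 5.59 CPM. In both genes all grafts were above all controls. The 4 subunits of GINS, which holds Cdc45 to the ring, gave log2 fold changes of 2.34 ± 0.79 for Gins1, 1.75 ± 0.38 for Gins2, 0.96 ± 0.27 for Gins4 and 0.88 ± 0.44 for Gins3, and Gins3 did not pass (edgeR adjusted p = 0.132). Gins3 stood at 2.91, 5.63, 1.60 and 4.04 CPM in the grafts and at 1.87, 1.29, 1.59 and 3.17 CPM in the controls, so the groups overlapped at graft 3. Gins1 rested on 2, 0, 8 and 0 counts in controls 1 to 4, and 3 counts would have been 0.560 CPM in control 4. Its log2 fold change was 4.01 without control 3 and 3.75 with controls 3 and 4 left out. The Gins1 call was kept without control 3 (edgeR adjusted p = 0.00733) or graft 3 (0.0463) and lost without any 1 of the others (0.0583 to 0.0968) or with no filter on low counts (0.0577). Gins4 lost its call without graft 4 (0.054) and with controls 3 and 4 left out (0.0848).

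Of the clamp and its loader, 3 of 6 genes rose. Pcna, the ring that tethers the polymerases and a common stain for dividing cells, stood at 38.4, 43.9, 33.7 and 44.8 CPM in the grafts and at 31.8, 32, 26.2 and 39.4 CPM in the controls. Control 4 lay above grafts 1 and 3, and the log2 fold change of 0.32 ± 0.16 (SE; 95% interval -0.03 to 0.67) did not pass (edgeR adjusted p = 0.128). With library totals alone Pcna did pass, at an adjusted p of 0.0124. Of the 5 subunits of replication factor C, which loads the clamp, Rfc3, Rfc4 and Rfc5 rose. Rfc3 stood at 6.89, 5.28, 5.10 and 5.41 CPM in the controls and at 10.9, 12.2, 13.1 and 10.7 CPM in the grafts (log2 fold change 1.04 ± 0.18; edgeR adjusted p = 0.00157). Rfc5 stood at 6.97, 6.57, 7.86 and 7.28 CPM in the controls and at 12.0, 11.4, 14.4 and 11.3 CPM in the grafts. Neither gene's groups overlapped. Rfc4 rose by 0.71 ± 0.21, and lost its call without graft 1 (edgeR adjusted p = 0.0542) or graft 2 (0.0603) and with controls 3 and 4 left out (0.0612).

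Rfc2, another small subunit, did not pass: controls stood at 8.32, 4.28, 4.52 and 5.04 CPM and grafts at 8.07, 6.23, 8.80 and 8.99 CPM. Control 1 alone reached into the range of the grafts, and without it Rfc2 was called higher (edgeR adjusted p = 0.0131). Rfc1, the large subunit, had a fold change below 0: controls stood at 51.3, 75.1, 75.5 and 70.2 CPM and grafts at 59.9, 59.1, 55.1 and 63.4 CPM. Here too control 1 lay apart from the other controls, and without it Rfc1 was called lower (log2 fold change -0.31, edgeR adjusted p = 0.024), whereas with all libraries it did not pass (-0.20 ± 0.14, adjusted p = 0.282).

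Both primase genes rose, as did Pole and Pole2 of polymerase epsilon, and the listed genes of polymerases alpha and delta were mixed. Pole, the catalytic subunit of the leading strand polymerase epsilon, stood at 9.51, 3.59, 4.60 and 10.1 CPM in the controls and at 24.1, 28.5, 25.4 and 23.9 CPM in the grafts, which is 1.89 ± 0.32 (SE, log2; edgeR adjusted p = 0.00125). Its partner Pole2 stood at 1.95, 1.49, 2.18 and 2.05 CPM in the controls and at 5.52, 6.31, 4.96 and 4.69 CPM in the grafts, a log2 fold change of 1.48 ± 0.24. The grafts were above the controls throughout, and the controls of Pole fell into a higher pair (1 and 4) and a lower pair (2 and 3). Both primase subunits, which lay down the RNA primers, rose: Prim1 by 1.00 ± 0.17 (edgeR adjusted p = 0.00141) and Prim2 by 1.14 ± 0.25 (0.00561). Of polymerase alpha, which extends the primers, Pola2 rose by 0.54 ± 0.18 (0.0329). Pola2 kept its call without control 1 or graft 4 and lost it without any 1 of the other 6 libraries (adjusted p from 0.0523 to 0.0751), with no filter on low counts (0.0603) and with controls 3 and 4 left out (0.109). The catalytic Pola1 did not pass, at 5.28, 3.46, 4.16 and 5.07 CPM in the grafts and 4.27, 2.59, 3.51 and 4.11 CPM in the controls, so the groups overlapped.

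The subunits of polymerase delta, which copies the lagging strand, went opposite ways. Pold1, the catalytic subunit, rose from 10.9, 5.28, 7.61 and 5.23 CPM in the controls to 14.6, 13.7, 17.0 and 13.1 CPM in the grafts (log2 fold change 0.99 ± 0.25, SE; edgeR adjusted p = 0.0117). It lost this call only with controls 3 and 4 left out together (0.0728). Pold2, the accessory subunit, fell from 6.74, 7.17, 6.78 and 7.28 CPM to 4.55, 5.56, 5.04 and 3.79 CPM (-0.56 ± 0.20; adjusted p = 0.043). Every graft was below every control for Pold2, but the call was narrow. It was kept without control 1 (0.0457) and lost without any 1 of the other 7 libraries (0.0542 to 0.119).

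Among the genes that coat single strands and join the lagging strand, Fen1 rose and the coat proteins did not. Fen1, the nuclease that trims primer flaps, stood at 2.70, 1.39, 2.68 and 2.80 CPM in the controls and at 11, 12.8, 7.92 and 9.69 CPM in the grafts, or 4.34-fold (edgeR adjusted p = 0.000326). Lig1, the ligase that seals the trimmed ends, stood at 3.00, 3.78, 4.68 and 4.85 CPM in the controls and at 5.22, 8.04, 5.36 and 6.29 CPM in the grafts. All grafts exceeded all controls for Lig1, yet it did not pass (log2 fold change 0.62 ± 0.25, SE; adjusted p = 0.0697), except with library totals alone (0.0222). Rpa1, the large subunit of the single-strand binding protein, was lower in every graft than in every control, at 38.1, 42.9, 33.8 and 43.8 CPM against 54.7, 56.0, 44.2 and 51.3 CPM. Its fall of 0.38 ± 0.13 on the log2 scale was called (adjusted p = 0.0407), was kept without control 3 (0.028) and was lost without any 1 of the other 7 libraries (0.0513 to 0.118). Rpa2, its partner, stood at 13.3, 14.0, 13.0 and 14.2 CPM in the grafts, inside the control values of 13.6, 14.6, 10.4 and 13.4 CPM (log2 fold change 0.07, 95% interval -0.28 to 0.42).

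Of the 4 deoxynucleotide enzymes, 3 rose. Tk1, the thymidine kinase of the salvage route, stood at 5.54, 1.29, 2.34 and 1.87 CPM in the controls and at 14.9, 23.8, 16.5 and 15.6 CPM in the grafts, which is 2.63 ± 0.41 (SE, log2; edgeR adjusted p = 0.000878). Rrm2, the small subunit of ribonucleotide reductase, whose level is known to follow S phase, went from 2.92, 1.49, 3.18 and 3.55 CPM to 13.5, 16.4, 10.8 and 16 CPM, a log2 fold change of 2.36 ± 0.28. For both, the lowest graft was above the highest control by a wide margin. Control 1 was the highest control for Tk1, and without it the Tk1 value was 3.25. Rrm1, the large subunit, rose less, from 35.5 ± 2.85 CPM (SD, n = 4) to 57.9 ± 8.28 CPM (log2 fold change 0.71 ± 0.13; adjusted p = 0.0024). Tyms, which makes thymidylate anew, did not pass: grafts stood at 20.3, 22.5, 11.4 and 20.6 CPM and controls at 19.9, 21.0, 26.8 and 26.9 CPM. Graft 3 lay well below all other libraries, and the log2 fold change was -0.33 (95% interval -0.83 to 0.16; adjusted p = 0.253).

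Both subunits of chromatin assembly factor 1, which places histones on new DNA, rose. Chaf1a stood at 10.7, 5.88, 6.02 and 6.91 CPM in the controls and at 14.6, 21.1, 16.6 and 17.2 CPM in the grafts (log2 fold change 1.23 ± 0.23, SE; edgeR adjusted p = 0.00248). Chaf1b stood at 2.10, 1.79, 1.76 and 0.747 CPM in the controls and at 5.04, 5.33, 4.40 and 5.65 CPM in the grafts (1.62 ± 0.30; 0.00237). E2f1, which activates many of these genes, stood at 14.8, 9.76, 7.53 and 6.91 CPM in the controls and at 10.0, 11.9, 10.4 and 11.1 CPM in the grafts. The grafts lay within the spread of the controls, with control 1 the highest of all 8 libraries, and the log2 fold change was 0.15 (95% interval -0.41 to 0.70; adjusted p = 0.661). With controls 3 and 4 left out it was -0.17, and without control 1 it was 0.42 (edgeR adjusted p = 0.0874).

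**Figure D4:**
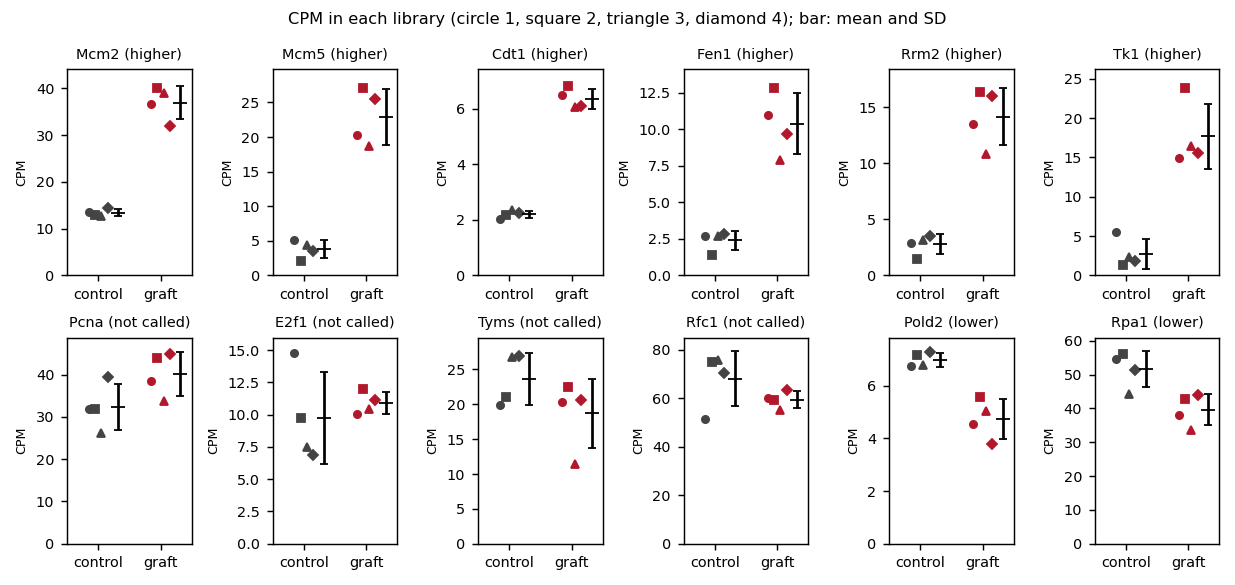
CPM of 12 genes in each of the 8 libraries (symbols give the replicate number), with the mean and SD over the 4 libraries of each group beside them; each vertical axis starts at 0. In the upper row the graft points lie above all control points, and in the lower row they overlap (Pcna, E2f1, Tyms, Rfc1) or lie below (Pold2, Rpa1).

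To set the partners of 1 enzyme or complex side by side, the log2 ratio of 10 pairs was compared within libraries, where the scaling factors all but cancel. The ratios restate values given above, and the pairs were chosen with such values known, so their p-values are no independent evidence that partners moved apart. Each ratio was tested by an exact permutation test over the 8 libraries (two-sided, smallest possible p of 0.0286) and adjusted over the 10 pairs. In 5 pairs the graft and control ratios did not overlap, each at that smallest p of 0.0286 and an adjusted p of 0.0571 by the exact permutation test, which misses 0.05. Rrm2 to Rrm1 went from -3.66 ± 0.45 (SD, n = 4) to -2.03 ± 0.07, a shift of 1.63 toward the small subunit. Pold1 to Pold2 shifted by 1.61, from -0.01 ± 0.55 to 1.60 ± 0.22, and Orc1 to Orc6 by 1.28. Rfc1 to Rfc4 shifted by -0.89 and Rpa1 to Rpa2 by -0.45, the latter from 1.98 ± 0.07 to 1.53 ± 0.11.

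In the other 5 pairs the ratios of the groups overlapped. The shift was 0.57 for Pole to Pole2 (exact permutation p = 0.171), -0.41 for Chaf1a to Chaf1b (p = 0.286), -0.22 for Pola1 to Pola2 (p = 0.286) and -0.16 for Prim1 to Prim2 (p = 0.6). Cdt1 was also set against Gmnn, geminin, which holds Cdt1 inactive after S phase begins. That ratio ran from -0.30 to 2.50 over the controls and from -0.12 to 0.29 over the grafts, with a shift of -0.92 (exact permutation p = 0.286). Gmnn itself rose from 0.225, 0.598, 1.84 and 2.80 CPM in the controls to 5.28, 7.44, 5.28 and 5.65 CPM in the grafts. Controls 1 to 4 held only 3, 6, 22 and 15 counts of Gmnn. The high ratios of 2.50 and 1.63 in controls 1 and 2, and with them the shift, thus rest on few counts.

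**Figure D5:**
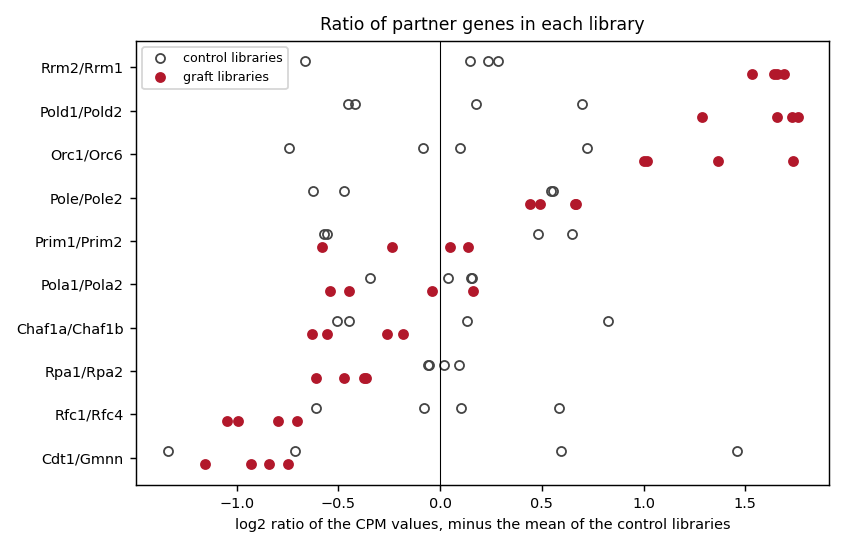
Log2 ratio of the CPM of 2 partner genes in each library, minus the mean of the 4 control libraries; open points are controls and filled points grafts. The filled points stand clear of the open ones for Rrm2/Rrm1, Pold1/Pold2, Orc1/Orc6, Rpa1/Rpa2 and Rfc1/Rfc4 and mix with them in the other pairs.

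Other genes of DNA replication and of the cell cycle, from 7 further lists, were also mostly higher where they changed. Of 92 tested, 44 rose and 7 fell, 41 passed in neither direction, and the median fold change was 0.59 on the log2 scale. These are 47.8% higher and 7.61% lower, beside 21.0% and 21.3% of all genes tested. Among 12 further origin and firing factors 4 rose and 1 fell. Recql4 and Ticrr, which help to fire origins, rose by 2.44 ± 0.38 (SE; edgeR adjusted p = 0.000823) and 3.42 ± 0.66 (0.00287). Controls 1 to 4 held 18, 4, 12 and 3 counts of Recql4 and 0, 6, 14 and 9 of Ticrr. The origin subunit Orc3 fell by 0.61 ± 0.15 (0.00859). The Orc3 call was lost with library totals alone (-0.38, edgeR adjusted p = 0.0612) and with controls 3 and 4 left out (0.0665), and Ticrr stood at 4.93 in the latter fit and at 4.38 with limma voom. Among 19 further fork and polymerase factors 9 rose and 0 fell by edgeR, DESeq2 or limma voom (1 lower at an unadjusted p under 0.05 in each). Exo1, an exonuclease at forks and breaks, stood at 0.225, 0.199, 0.251 and 0.373 CPM in the controls, from 3, 2, 3 and 2 counts. In the grafts it stood at 3.22, 4.06, 2.96 and 2.50 CPM. Timeless, which protects stalled forks, rose by 1.63 ± 0.19. The accessory polymerase subunits Pold3, Pold4, Pole3 and Pole4 did not pass (log2 fold changes of -0.01, 0.60, -0.42 and -0.27).

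Of 8 further nucleotide genes 0 fell by any of the 3 tools (1 at an unadjusted p under 0.05 in each) and 2 rose by edgeR (25%, near the 21.0% of all genes): Dctd, the deaminase that feeds thymidylate synthesis, by 1.05 ± 0.19 (SE; edgeR adjusted p = 0.00187), and Samhd1, which breaks deoxynucleotides down and is abundant in myeloid cells, by 1.95 ± 0.36 (0.00224). Samhd1 stood at 30.4, 54.8, 114 and 58.0 CPM in the grafts and at 13.7, 21.2, 17.7 and 13.8 CPM in the controls. Dut, which keeps uracil out of DNA by breaking down dUTP, did not pass (0.11). Of 7 further genes of chromatin copying 4 rose and 1 fell. Uhrf1 and Dnmt1, which carry DNA methylation over to the new strand, rose by 2.65 ± 0.27 and 0.78 ± 0.10. The histone chaperone Asf1a fell by 0.70 ± 0.14 on the log2 scale (0.00392), whereas its paralog Asf1b rose by 3.37 ± 0.65 (0.00281). Asf1b had only 10, 0, 2 and 1 counts in controls 1 to 4.

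Of 20 regulators of entry into S phase, 9 rose (45%) and 3 fell (15%, below the 21.3% of all genes). E2f8, a repressor of E2F targets that is made in S phase, rose by 2.88 ± 0.40 (SE; edgeR adjusted p = 0.000489). It had 5, 4, 11 and 6 counts in controls 1 to 4 and rose by 3.66 with controls 3 and 4 left out. Its relative E2f7 rose by 2.35 ± 0.35, while E2f2, an activator like E2f1, did not pass (0.41 ± 0.38). Cdkn1a, the inhibitor p21, rose 9.70-fold, from 5.02, 5.58, 6.36 and 6.35 CPM in the controls to 61.8, 51.4, 52.6 and 59.4 CPM in the grafts (adjusted p = 8.96e-06). The groups lay far apart and each was even. Cdkn1b, the inhibitor p27, fell from 121, 157, 172 and 170 CPM to 75.6, 75.4, 52.1 and 78.1 CPM (-1.14 ± 0.17; 0.000614). Rb1, the retinoblastoma protein that restrains E2F factors, fell from 90.4, 116, 105 and 111 CPM to 53.3, 51.8, 58.7 and 54.6 CPM (-0.95 ± 0.11; 0.000184), and its relative Rbl1, named here after its values were seen, rose by 1.05 ± 0.20. The third gene that fell was Tfdp2, a dimer partner of E2F factors (-1.53 ± 0.29). Cyclin E1 (Ccne1) rose by 1.77 ± 0.32 and cyclin A2 (Ccna2) by 1.44 ± 0.40, both likewise named after their values were seen. Cyclin E2 (Ccne2, 0.24), Cdk2 (-0.33) and Rbl2 (-0.14) did not pass, and Cdkn1c rose by 1.64 ± 0.32.

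Of 8 replication checkpoint genes 0 rose by edgeR, DESeq2 or limma voom, also at an unadjusted p under 0.05. Wee1, the kinase that holds back Cdk1, fell by 1.71 ± 0.20 (SE, log2; edgeR adjusted p = 0.00016) and Rad17, a loader of the checkpoint clamp, by 0.45 ± 0.16 (0.0493), and Chek1 and Atr did not pass. These 2 falls are 25% of the list, near the 21.3% of all genes. The groups overlapped for Rad17, with graft 2 at 31.6 CPM and control 1 at 29.4 CPM. Of the 16 alternatives, its call was kept with DESeq2 and without control 1 only, and was lost in the others (adjusted p from 0.0523 to 0.379). Of 18 mitosis genes 16 rose and 0 fell by edgeR (0 also at an unadjusted p under 0.05 and by the other 2 tools), with a median of 1.63. Birc5 (survivin) rose by 3.86 ± 0.43 (0.000136) and Cdk1 by 2.36 ± 0.25 (0.00011). Birc5 had only 2, 3, 5 and 1 counts in controls 1 to 4. Among controls the mitosis sum was highest in controls 3 and 4, at 233 and 178 CPM against 88.1 and 128 CPM in controls 1 and 2. The sum of the 41 replication genes stayed between 410 and 453 CPM in all 4. That sum is weighted toward abundant genes such as Rfc1 and Rpa1 (control means of 68.0 and 51.5 CPM), so it does not show that each gene was even. Of genes with low CPM, Tk1 ran from 1.29 to 5.54 CPM over the controls and Cdt1 from 2.02 to 2.34 CPM. In the grafts the replication sum was 631 to 752 CPM and the mitosis sum 333 to 646 CPM, and both were highest in graft 2 and lowest in graft 3.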

How the data were processed

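Total RNA of 4 vein grafts and 4 control jugular veins was sequenced on Illumina libraries, per the labels' protocols. Per the submitters' processing notes, HISAT2 2.0.4 and the assembly Rnor_6.0 were used. Which program counted reads, on which annotation and whether by strand is not given in the sources used here, so reads of overlapping genes or of pseudogene copies may be mixed or dropped. The authors deposited whole-number counts per gene, 1 column per library, each named by a sample title.

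In R 4.3.3, genes were kept by filterByExpr (minimum count 10), scaled by TMM factors and tested with edgeR 4.0.16 (glmQLFit, glmQLFTest; Benjamini-Hochberg over 15464 genes). CPM use the TMM-scaled library sizes. Transcript lengths were not used, so levels are not compared between genes. At these depths 3 counts are 0.182 to 0.56 CPM. Standard errors are the absolute log2 fold change over the square root of F. Ratios of partner genes used log2 CPM with a prior count of 2.

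DESeq2 1.42.0, limma 3.58.1 (voom), other scalings, no filter, a replicate block and the removal of libraries were tried as alternatives. The procedure was tested on simulated counts. Libraries of a group differed by more than counting noise (chi-square per degree of freedom of at least 24.5). Titles number both groups 1 to 4, but the source names number the grafts differently (9, 10, 3 and 5). Although the controls are called self-contralateral, no label ties a graft to a control, so the fit is unpaired. If grafts and controls shared rats, that pairing is ignored. The labels do not say that each library is a separate animal, and p-values measure the spread between these libraries.

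The 41 genes and the further lists were chosen with earlier results of these data known. Values in every library are given for the 2 genes of smallest p in each role and for each gene that fell or did not pass. Of each further list, the 2 called genes of smallest p in each direction are named, and other genes named were chosen after their values were seen. Printed promoters belong to the gene of smallest p with an E2F word in each of 6 roles, and the shorter MCM windows were added after the words were found. Promoters are read on the strand of the gene.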

Additional observations from a re-analysis of the deposited data

Results flagged for a closer look

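In 102 groups of 4 values (CPM of the 41 genes and log2 ratios of the 10 pairs, in controls and in grafts), 3 held a library far from the other 3, where chance flags about 1 in 20 groups. Mcm7 stood at 3.82 CPM in control 1, against 1.79 to 2.09 CPM in the other controls. Fen1 stood at 1.39 CPM in control 2, against 2.68 to 2.80 CPM in the others. The log2 ratio of Rrm2 to Rrm1 was -4.32 in control 2, against -3.51 to -3.37 in the others. All 3 were controls, and in each case the other 3 controls lay on the same side of all grafts.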

How the results depend on the processing

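Over 16 alternative fits the number of replication genes called higher ran from 24 (controls 3 and 4 left out) to 31 (library totals alone), and 23 of the 41 were called higher in every fit. The number called lower was 0 with library totals alone, upper-quartile factors, no filter or controls 3 and 4 left out (0, 2, 2 and 1 had an unadjusted p under 0.05), and 0 to 2 with 1 library left out, so neither fall (Pold2, Rpa1) holds across the settings. Of 656 recomputed fold changes of these genes 4 reversed, all of genes that did not pass: Rfc1 was 0.0298 with library totals alone, Rpa2 ran from -0.0343 to 0.14 with 1 library left out and was -0.0480 with controls 3 and 4 left out, and E2f1 was -0.17 with controls 3 and 4 left out. The cause was not tested. The other pathway genes called ranged from 40 to 51 higher and from 5 to 9 lower, and all genes called from 4778 to 7840.

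With the title number as a replicate block, 26 of the 41 genes were called higher and 1, Rpa1, lower, and Pola2, Gins1, Rfc4 and Pold2 lost their calls. The deviations of same-numbered libraries had correlations of -0.07, 0.18, 0.07 and 0.05, and 2 of 8 libraries correlated best with their own number. As the labels do not tie title numbers to rats, these values cannot tell whether the libraries were paired. Without control 4, 6 ratios had an adjusted exact permutation p of 0.0476, with Cdt1 to Gmnn added. The adjusted value fell below 0.05 only because that pair also reached the smallest possible p of 0.0286. As the pairs were chosen with values known, this is no added evidence. With 1 library left out, shifts ran from 1.41 to 1.73 for Rrm2 to Rrm1, 1.46 to 1.84 for Pold1 to Pold2, -0.48 to -0.40 for Rpa1 to Rpa2, -1.38 to -0.43 for Cdt1 to Gmnn, -1.09 to -0.69 for Rfc1 to Rfc4, 1.04 to 1.54 for Orc1 to Orc6 and -0.35 to 0.0570 for Prim1 to Prim2. On the strand of the gene only, 25.7% of the matched promoters held an E2F word and 37.1% a CCAAT box.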
